A study of Homo sapiens with 32 samples.

Results

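In RPTEC, human kidney proximal tubule epithelial cells immortalized with hTERT, 973 of 66134 autosomal m6A regions were called in both WT peak lists and in none of the 4 SETD2KO lists. They make up 1.47% of the regions and are called lost regions here. The regions were selected on those 6 lists: overlapping peaks of the 8 RPTEC lists were merged, and a list called a region when 1 of its peaks overlapped it by at least 1 bp. What the 6 lists show at these regions therefore describes the choice and is given without a test. Lost means only that no peak was called, because the lists hold no read counts and the depth behind a peak is unknown. Fewer copies of a transcript and less m6A per copy cannot be told apart. The count rests on both WT lists: without WT replicate 1 or 2 the rule gave 5606 and 5238 regions.

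N6-methyladenosine (m6A) is a mark laid on RNA during transcription by a methyltransferase complex with METTL3 as its catalytic subunit, most often at adenosines in short motifs such as GGAC. Reader proteins of the YTH and IGF2BP families bind marked transcripts and change their decay, splicing or translation. SETD2 is the enzyme that places H3K36me3, a histone mark over the bodies of transcribed genes, and it is often mutated in clear cell renal cell carcinoma (ccRCC). METTL14, the partner of METTL3, is known to bind H3K36me3, which is why m6A was mapped in cells without SETD2.

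m6A was measured by MeRIP-seq, in which an antibody against m6A enriches RNA fragments and the immunoprecipitated (IP) fraction is compared with Input RNA. RPTEC, a surrogate for normal kidney epithelium, and 786-O, a ccRCC line, each had 4 groups with 2 IP lists per group: the untreated WT parent, 2 CRISPR/Cas9 clones without SETD2 (SETD2KO-1 and SETD2KO-2), and SETD2KO-1R, a clone derived from the first of these after a FLAG-tagged full-length SETD2 transgene was put back. No group received a drug. Each group is 1 line, and nothing states that its 2 libraries came from separate cultures, so their spread may be technical. The RPTEC lists hold 19249 to 31207 peaks and the 786-O lists 25710 to 39670. Peaks lay in 10 of 19 tubule and epithelial marker genes in both RPTEC WT lists, among them PAX8, PAX2, CDH6, KRT8 and ANPEP. The other 9, which include LRP2, CUBN, AQP1 and HNF4A, held no peak in either, and a gene without a peak may still be expressed. SETD2 itself held 7 and 10 peaks in the RPTEC WT lists, 6 and 4 in SETD2KO-1, 4 and 5 in SETD2KO-2, and 11 and 10 in SETD2KO-1R, and none of its regions was among the lost ones. Peaks on the SETD2 transcript do not check whether the protein was missing.

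Few lost regions lay at a transcription start, and those are the ones for which sequence can be shown. In RefSeq windows of GRCh38.p14, from 250 bases before a start to 50 after it, 36 lost regions (3.70%) overlapped 1 or more of 35116 windows, against 6.16% of all regions and 6.82% of the other regions called in exactly 2 of the 6 WT and SETD2KO lists. The letters GGAC were searched on the transcribed strand of the first 50 transcribed bases, where they occur in 18.9% of all windows. They occur in 5 of the 46 windows that lost regions overlap (10.9%). At 3 of these 5 they lay inside the lost region itself, shown here with GGAC in capitals because this is the core of the usual m6A motif, together with the first transcribed bases of ITGA6, the start region with the highest WT score.
MAL-AS1, chr2:95027014-95027029, minus strand: ctGGACtttcacccta
GGA3, chr17:75262319-75262342, minus strand: ccaagtaggaGGACattccccaag
SUN2, chr22:38755417-38755434, minus strand: ccgtttccagGGACaggc
ITGA6, chr2:172427586-172427615, plus strand: aacgggctcattcagcggtcgcgagctgcc
The first 50 transcribed bases of the ITGA6 window hold no GGAC. A match is only a run of letters, and no base-resolution m6A data were used.

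The score that the peak caller gives each peak has no stated scale, so it was turned into a percentile within its list, from 0 for the lowest peak to 100 for the highest. The lost regions were mostly weak peaks. Their median percentile was 34.8 in WT replicate 1 and 40.4 in WT replicate 2, while the 5852 regions called in both WT and all 4 SETD2KO lists had medians of 71.8 and 72.2. Low rank was not particular to them, since the 9424 other regions called in exactly 2 of the 6 lists had medians of 35.9 and 36.4 in the WT lists that called them. In all, 497 lost regions (51.1%) lay in the lower 50% of both WT lists and 64 (6.58%) in the upper 25% of both. Of the 12966 regions called in both WT lists, 22.1% of the lowest 10% by WT percentile were lost and 1.31% of the highest 10%. The median length of a lost region was 461 bp, with a range of 271 to 2917 bp, against 456 bp for the regions called in exactly 2 and 908 bp for those called in all 6 lists.

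**Figure D1:**
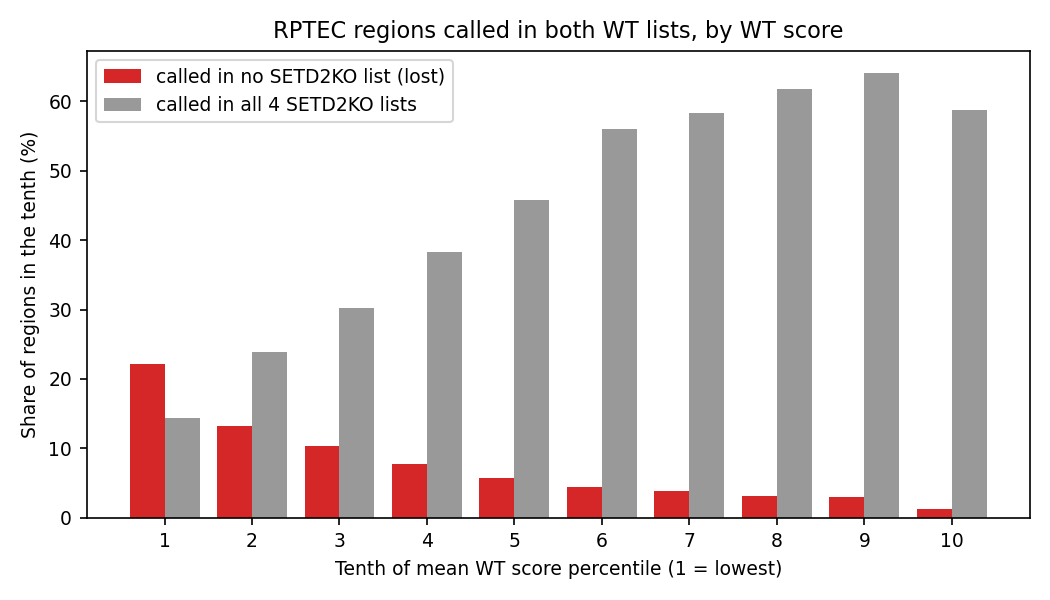
RPTEC regions called in both WT lists, split into 10 equal bins by their mean score percentile in those lists (x axis). Bars give the share of each bin called in no SETD2KO list and in all 4 (y axis, %). The lost share falls from 22.1% in the lowest bin to 1.31% in the highest.

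The median distance from a lost region to the nearest peak of any SETD2KO list was 4116 bp. For 141 lost regions (14.5%) it was at most 500 bp, and for 299 (30.7%) it was more than 10000 bp. The same distance was not measured for other regions. Regions just outside the rule are 1411 regions called in both WT lists and exactly 1 SETD2KO list, with median WT percentiles of 42.5 and 47.9, and 8822 called in 1 WT list and no SETD2KO list, with medians of 24.6 and 24.8.

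By mean WT percentile, the 12 top lost regions of protein-coding genes lay at the mean percentiles 93.5 to 98.9. The strongest was in ACTN4, an actin crosslinker of the cytoskeleton, at chr19:38728601-38728981, with percentiles of 99.1 and 98.8 in WT and no call in either SETD2KO-1R list. It was called in SETD2KO-1 of 786-O at 99.0 and 99.8 and in 1 SETD2KO-1R list at 97.7. The ACTN4 region was thus a strong peak in knockout libraries of the other cell line. The remaining 11 lay in NRDE2 and PSMC1, which overlap, and in ST13, RPL27, ADRM1, MRPL28, SRBD1, DIAPH3, LAMC1, LAD1, PTPRM and SPIN1. By background knowledge, PSMC1 and ADRM1 belong to the proteasome, RPL27 and MRPL28 to the cytosolic and mitochondrial ribosome, and ST13 is a cochaperone of Hsp70. DIAPH3 is a formin that nucleates actin, LAMC1 a laminin chain, LAD1 a protein of the basement membrane zone, PTPRM a cell adhesion phosphatase and SPIN1 a reader of histone methylation.

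Of these 12 regions, 5 were called in no SETD2KO-1R list, 6 in 1 and 1 in both. Over all lost regions the shares were 50.4%, 34.8% and 14.8%, and over all regions 40.9%, 34.0% and 25.2%. All regions include those called in SETD2KO-1R lists alone, which by construction lowers their share with no such call. Of the 17 lost regions in the highest 10% by WT percentile, both lists called 4 (23.5%). The ST13 region (chr22:40826629-40826918) reached the percentiles 97.0 and 99.0 in WT and 98.4 in SETD2KO-1R replicate 2, and was called in all 4 SETD2KO lists of 786-O at 93.6 to 98.8. The ADRM1 region (chr20:62305596-62306184), at 98.7 and 94.3 in WT, was called in both SETD2KO-2 lists of 786-O at 99.0 and 98.4 and in neither WT list there. In 786-O, 11 of the 12 were called in at least 1 list, beside 69.9% of all lost regions and 68.6% of all regions. The exception was LAD1 (chr1:201386862-201387424), at 94.5 and 93.3 in RPTEC WT and called in no other of the 16 lists. Leaving out peaks shorter than 300 bp kept 4 of the 12 as lost regions. The 12 span 290 to 589 bp.

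**Figure D2:**
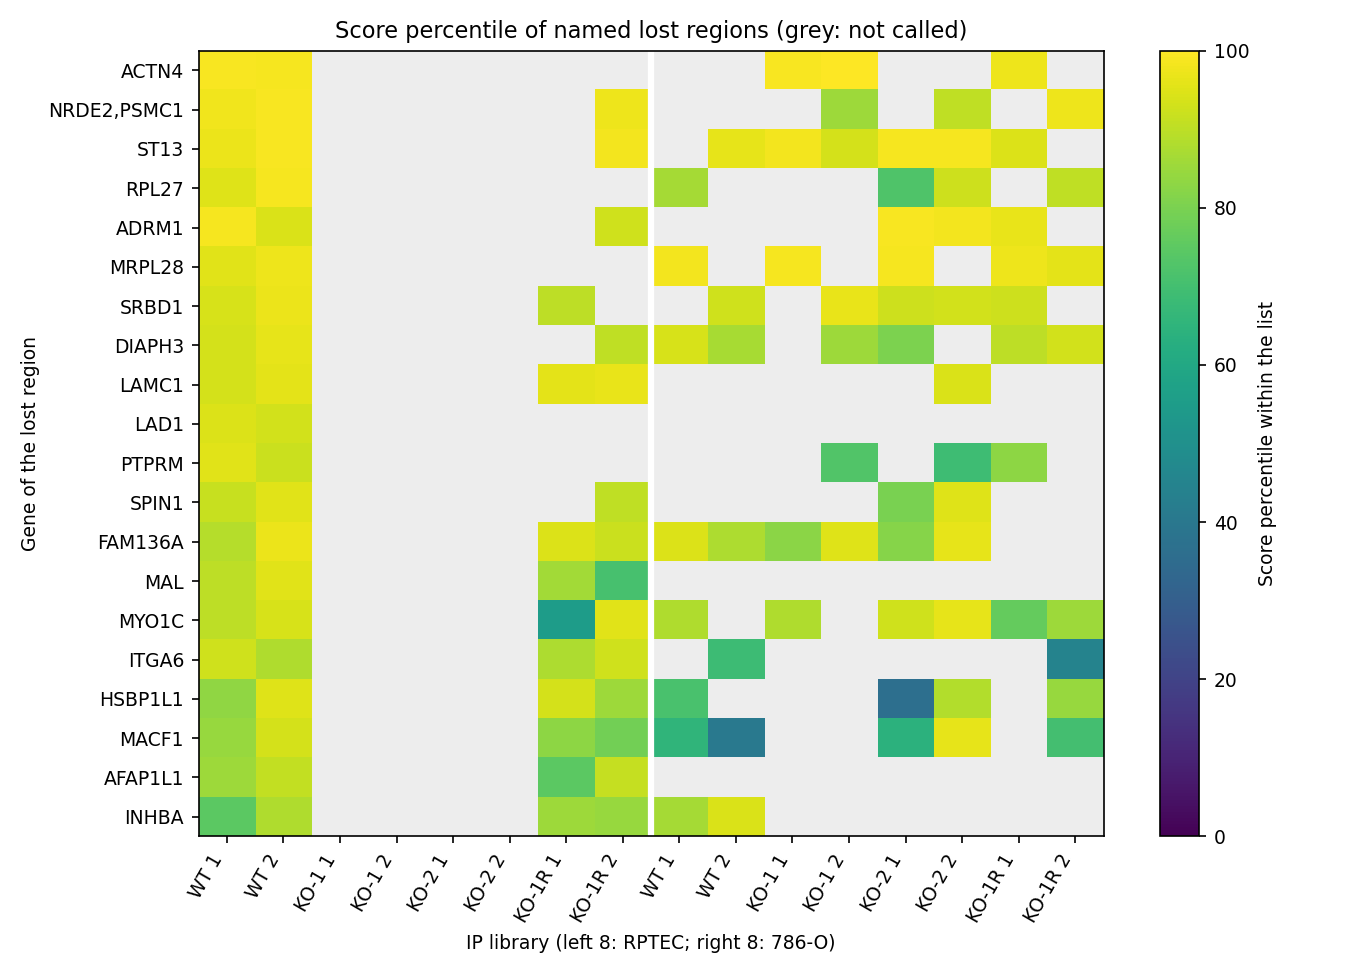
Score percentile (colour, 0 to 100) of the 12 lost regions with the highest WT scores and 9 of the 10 highest, by mean over WT and SETD2KO-1R, that both RPTEC SETD2KO-1R lists called, 20 in all (rows, named by gene; LAMC1 is in both sets), in the 16 IP lists (columns; left 8 RPTEC, right 8 786-O). Grey means not called. The rule fixes the first 6 columns. In 786-O, 17 of the 20 rows are coloured somewhere, beside 69.9% of all lost regions and 68.6% of all regions called there.

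The rule did not use the calls of the SETD2KO-1R lists, although their peaks were merged with the others and helped set the region borders. Without SETD2KO-1R replicate 1 or 2 in the merging, the rule gave 984 and 979 regions. The SETD2KO-1R calls show how many peaks were called again with the transgene. Both lists called 144 of the 973 lost regions, 14.8% (Wilson 95% interval 12.7 to 17.2), 339 were called in 1 list and 490 in none. At least 1 list called 483, 49.6% (46.5 to 52.8). Over all regions both lists called 25.2% and at least 1 called 59.1%. Over the 9424 other regions with exactly 2 calls, the number that the lost regions have, the shares were 16.5% and 50.9%. Each of these has at least 1 SETD2KO call, which may be in SETD2KO-1, the parent of SETD2KO-1R, so only the number of calls is matched. The lost regions thus lay below all regions and close to the regions with the same number of calls. All regions include those called in SETD2KO-1R lists alone, which by construction raises their share with at least 1 call. How this changes the share called in both was not measured. The same limit holds wherever SETD2KO-1R calls are set beside all regions, so those comparisons are only descriptions. Of the 1411 regions with 1 SETD2KO call, both lists called 30.1%, and of the 459 gained regions, called in all 4 SETD2KO and no WT list, both called 34.0%. With 2 libraries of 1 rescued line there is no test over samples, and the intervals cover counting error only. The share called in both depended on single libraries: it was 4.57% and 7.60% for the regions chosen without WT replicate 1 or 2 and 22.5% without SETD2KO-1 replicate 2.

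The 2 SETD2KO-1R lists differed. Replicate 1 called 26.6% of the lost regions against 40.6% of all regions, and replicate 2 called 37.8% against 43.8%. Among the lost regions, both lists called 6.97% of the 25% with the lowest WT percentiles and 20.2% of the 25% with the highest. The 144 regions called in both had a median percentile of 43.2 and 47.9 in the WT lists and of 40.9 and 48.7 in the SETD2KO-1R lists. These medians cover only regions that both SETD2KO-1R lists called and do not show that single regions kept their rank.

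The regions called in both SETD2KO-1R lists were ranked by their mean percentile over the 2 WT and 2 SETD2KO-1R lists, so high values in all 4 are part of the choice. Of the 10 highest in protein-coding genes, 9 are described here, in LAMC1, FAM136A, ITGA6, HSBP1L1, MAL, AFAP1L1, MACF1, MYO1C and INHBA. By background knowledge, LAMC1 and ITGA6 form part of a laminin and of its receptor, AFAP1L1 and MYO1C bind actin, and MACF1 links actin to microtubules. The LAMC1 region (chr1:183103079-183103368) had the percentiles 93.6 and 96.0 in WT and 95.8 and 96.5 in SETD2KO-1R. It is 290 bp long, and with peaks of at least 300 bp 5 of the 10 stayed lost regions. In 786-O the LAMC1 region was called only in SETD2KO-2 replicate 2. The ITGA6 region at the start printed here (chr2:172427424-172427840) had 92.7 and 88.0 in WT and 87.7 and 92.9 in SETD2KO-1R. In 786-O it was called in 1 WT list at 68.5 and 1 SETD2KO-1R list at 44.8 and in no SETD2KO list. The INHBA region (chr7:41700160-41700771), in the gene of an activin subunit, had 74.9 and 88.0 in WT and 85.5 and 84.4 in SETD2KO-1R. It was called in both 786-O WT lists, at 86.7 and 94.4, and in none of the other 6.

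MAL, a proteolipid that sorts apical membrane proteins in epithelia, held 2 lost regions of its 8. The first (chr2:95046195-95046896) had percentiles of 90.2 and 95.6 in WT and of 86.0 and 71.0 in SETD2KO-1R. The second (chr2:95026562-95027151) had 73.9 and 80.2 in WT and was called in SETD2KO-1R replicate 1 alone, at 52.97. It also overlaps the start of MAL-AS1 on the opposite strand, and the lists carry no strand, so the peak may belong to either transcript. Over the gene, MAL held 6 and 5 peaks in WT, 2 and 1 in SETD2KO-1, none in SETD2KO-2, and 5 and 3 in SETD2KO-1R. No 786-O list held a peak in MAL, so that gene cannot be compared there. Its relative MAL2 also held 2 lost regions, with 3 and 2 peaks in WT, none in the 4 SETD2KO lists, and 1 and 0 in SETD2KO-1R. In 786-O the order for MAL2 was the other way, with 4 and 3 peaks in SETD2KO-1, 2 and 2 in SETD2KO-2 and none in the 4 SETD2-expressing lists.

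The 786-O lists give an independent look at the same contrast in another cell line. At least 1 of the 8 lists called 680 lost regions, 69.9% (66.9 to 72.7), against 68.6% of all regions and 76.5% of the regions with the same number of calls. The share of lost regions called was 33.9% and 29.1% in the WT libraries, 24.9% and 30.4% in SETD2KO-1R, 24.2% and 26.7% in SETD2KO-1, and 34.1% and 31.4% in SETD2KO-2. The SETD2-expressing (WT and SETD2KO-1R) and SETD2KO values overlapped, with means of 29.6% ± 3.74 (SD, n = 4) and 29.1% ± 4.50 (SD, n = 4).

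**Figure D3:**
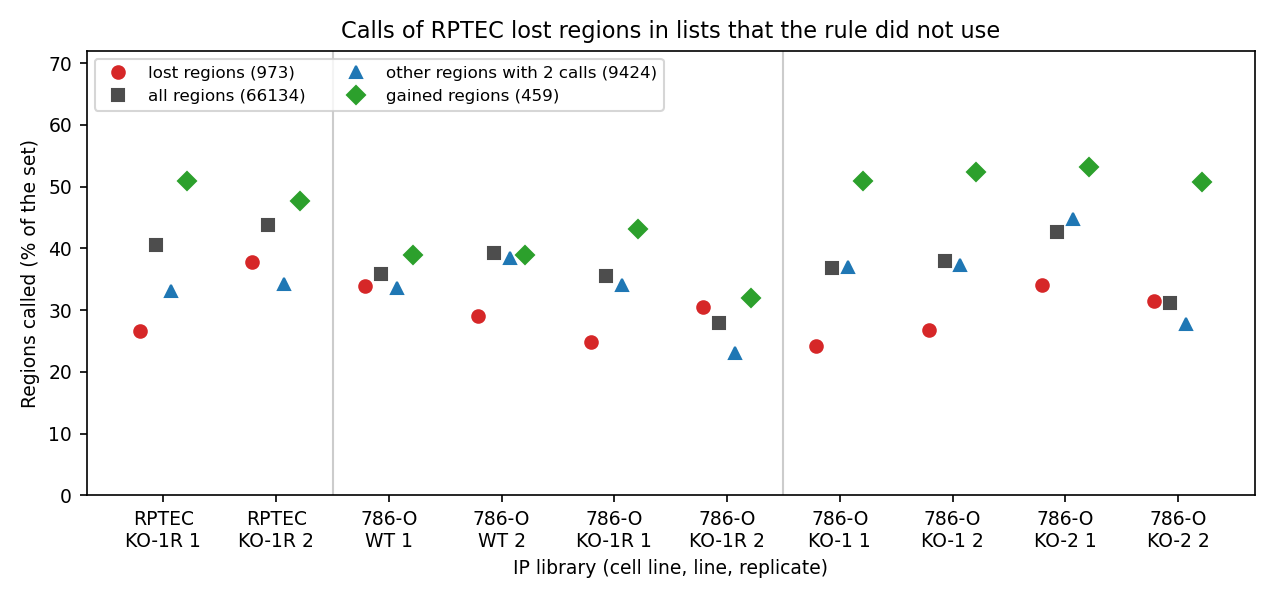
Share of a set of RPTEC regions that a library called (y axis, %) in the 10 libraries whose calls the rule did not use (x axis; KO-1, KO-2 and KO-1R stand for the SETD2KO lines). Each point is 1 library and 1 set. The lost regions sit between 24.2% and 34.1% in 786-O on both sides, and the gained regions are higher in the SETD2KO than in the other 786-O libraries.

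Because libraries differ in how many peaks they hold, each share was divided by the share of all RPTEC regions the same library called, on the log2 scale. This relative call rate of the lost regions was -0.08 and -0.43 in WT, -0.51 and 0.13 in SETD2KO-1R, -0.61 and -0.51 in SETD2KO-1, and -0.32 and 0.01 in SETD2KO-2. The mean was -0.23 ± 0.30 (SD, n = 4) in SETD2-expressing and -0.36 ± 0.27 (SD, n = 4) in SETD2KO libraries, a difference of 0.13 in the direction of the rule that did not pass a two-sided exact permutation test over the 8 libraries (p = 0.571, adjusted p = 0.743 over the 4 tests made). Without 1 library this difference ranged from 0.01 to 0.25. WT against SETD2KO alone differed by 0.10 (exact permutation p = 0.733, adjusted p = 0.743), in a design whose smallest possible p is 0.067. Without 786-O WT replicate 1 this difference turned to -0.07 (exact permutation p = 0.8). The p-values measure the spread between libraries of 4 lines, 2 of each, and treat those libraries as independent.

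The lost regions were also set against the gained RPTEC regions, which every 786-O library called relatively more often. The difference lost minus gained was -0.20 and -0.42 in WT, -0.79 and -0.07 in SETD2KO-1R, -1.08 and -0.97 in SETD2KO-1, and -0.64 and -0.69 in SETD2KO-2. The values overlapped only through SETD2KO-1R replicate 1. The means of -0.37 ± 0.32 (SD, n = 4) and -0.84 ± 0.21 (SD, n = 4) differed by 0.47 (exact permutation p = 0.0857, adjusted p = 0.343), which did not pass. Without SETD2KO-1R replicate 1 it was 0.61, with an unadjusted exact permutation p of 0.0286. For regions chosen without RPTEC WT replicate 1 it was 0.23 (exact permutation p = 0.429) and without WT replicate 2 it was 0.25 (exact permutation p = 0.143). Most of that difference came from the gained regions, whose own relative call rate averaged 0.15 ± 0.12 in SETD2-expressing and 0.49 ± 0.16 in SETD2KO libraries (SD, n = 4 each). At the gene, the share of protein-coding genes of the lost regions with a peak, divided by that of all genes with an RPTEC region, differed by 0.02 on the log2 scale (exact permutation p = 0.743, adjusted p = 0.743), and it turned to -0.0028 without SETD2KO-1R replicate 2 (exact permutation p = 0.943).

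Single lost regions with the same pattern in 786-O were few. Called in at least 3 of the 4 SETD2-expressing and none of the 4 SETD2KO lists were 9 of 973, 0.925% (0.487 to 1.75), against 0.697% of all regions. The opposite pattern, no SETD2-expressing list and at least 3 SETD2KO lists, also held for 9, against 1.31% of all regions. STK35, a kinase, held 1 of the 9 (chr20:2144135-2144664), with percentiles of 24.6 and 63.6 in RPTEC WT, 15.3 and 75.4 in RPTEC SETD2KO-1R, 89.1 and 82.1 in 786-O WT, and 91.0 and 72.7 in 786-O SETD2KO-1R. It was called in all 8 SETD2-expressing lists of both cell lines and in none of the 8 SETD2KO lists. SLC35G1 (chr10:93900731-93901283), which falls outside the naming rule and was chosen after its values were seen, was likewise called in all 8 and none, at 7.07 to 65.4. The other 7 lay in ADRA1B, TESMIN, OTUB2, PRR4 and MICAL2 and in 2 regions outside protein-coding genes, and their mean RPTEC WT percentiles, like that of STK35, were between 16.2 and 55.2. By the rule of the lost regions applied to 786-O itself, 1163 regions were lost there, and 15 overlapped an RPTEC lost region, 1.54% of the RPTEC list and 1.29% of the 786-O list. Of all RPTEC regions 1.1% overlapped one, and of the regions with the same number of calls 1.41%, so the share of the lost regions was near the background. These 15 lay, among others, in INHBA, ADRA1B, TESMIN, ENPP4 and KANSL1 and in an overlap of LTBR and SCNN1A.

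The place of the lost regions in genes is given as shares, with no test. Of the 973, 848 (87.2%) overlapped a protein-coding gene, 43 (4.42%) only a long noncoding RNA gene and 61 (6.27%) no gene, against 86.6%, 4.91% and 6.71% of all regions. Along the gene body, from 0 at the 5′ end to 1 at the 3′ end, the median position was 0.51 for the 650 lost regions in 1 gene of known strand, 0.56 for all regions, 0.54 for the regions with the same number of calls and 0.76 for the regions called in all 6 lists. Within 3 kb of the 3′ end of the gene lay 13.7% of the lost regions, 13.5% of all regions and 27.4% of the regions called in all 6 lists. Within 1 kb of the 5′ end lay 4.46% of the lost regions, 7.63% of all regions and 8.68% of the regions with the same number of calls. Chromosome 19 held 9.87% of the lost regions and 6.21% of all regions. The gene table has gene bodies without exons, so introns, coding sequence and untranslated regions could not be told apart.

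**Figure D4:**
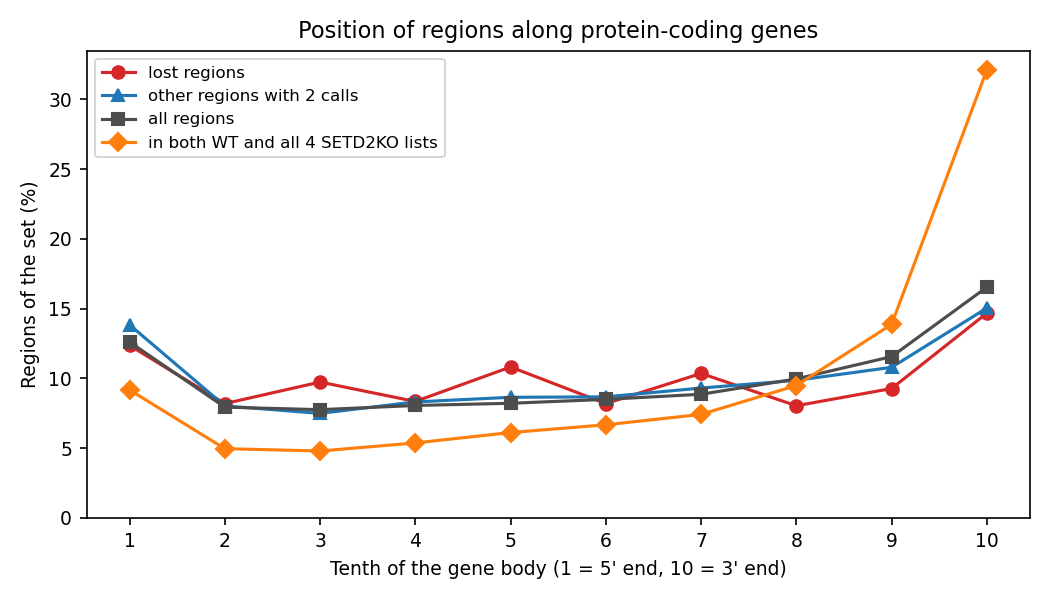
Share of regions (y axis, %) in each 10% of the body of protein-coding genes (x axis, 1 at the 5′ end), for regions that lie in 1 gene of known strand. The lost regions put 14.7% in the last 10%, and the regions called in both WT and all 4 SETD2KO lists put 32.1% there.

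The 848 regions lay in 770 protein-coding genes, 6.54% of the 11766 with an RPTEC region. Genes with many regions held them most often: 1.89% of genes with 1 region and 20.0% of genes with 10 or more had a lost region, and the median number of regions was 8 in genes with a lost region and 3 in all genes. In 395 of the 770 genes (51.3%) another region was called in all 4 SETD2KO lists, as in 41.2% of all genes. At equal numbers of regions the share was 12.7% of genes with a lost region and 28.0% of the others among those with 2 regions, 23.6% and 41.7% among those with 3 to 4, 49.8% and 54.4% among those with 5 to 9, and 78.6% and 77.8% among those with 10 or more. A lost region cannot itself be called in the SETD2KO lists, which lowers the share by construction in genes with few regions. The share of these genes with any peak was 70.8% to 80.5% in the SETD2KO lists and 87.5% and 90.9% in the SETD2KO-1R lists, while over all genes it was 63.4% to 77.2% and 77.5% and 79.7%. At equal numbers of regions the shares had no single order: a peak in both SETD2KO-1R lists was present in 27.1% of genes with a lost region and 33.7% of the others among those with 1 region, in 69.9% and 76.7% among those with 3 to 4, in 94.98% and 91.5% among those with 5 to 9, and in 98.4% and 98.2% among those with 10 or more.

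In 18 genes 3 or more regions were lost. KAZN, an epithelial protein linked to desmosomes, UBE2D2, a ubiquitin-conjugating enzyme, and WNT7A, a Wnt ligand, had 5 each. EXOC4, HSPG2, NXN, SIPA1L3, SNX29 and ZNF471 had 4, and CACNG8, CHST11, GNB1, MACF1, MICAL2, PRKCA, RAB11FIP1, ZFHX4 and ZNF544 had 3. WNT7A held 15 and 10 peaks in RPTEC WT, 4 and 6 in SETD2KO-1, 5 and 3 in SETD2KO-2 and 9 and 5 in SETD2KO-1R. The WT counts lay above the other 6 counts. No 786-O list held a peak in it. UBE2D2 held 14 and 26 peaks in WT, 6 and 2 in SETD2KO-1, 1 and 3 in SETD2KO-2, and 4 and 6 in SETD2KO-1R, so SETD2KO-1R stayed with the SETD2KO lists. NXN, an oxidoreductase, held 34 and 43 in WT, 16 and 17 in SETD2KO-1, 20 and 35 in SETD2KO-2 and 23 and 30 in SETD2KO-1R, where the WT and SETD2KO counts overlapped.

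ZNF471, a zinc finger gene on chromosome 19, lost all 4 of its regions. It held 4 and 4 peaks in RPTEC WT and none in any other RPTEC list, SETD2KO-1R included. In 786-O it held 3 and 2 in WT, 3 and 5 in SETD2KO-1, 3 and 4 in SETD2KO-2 and 4 and 3 in SETD2KO-1R. Its loss in RPTEC was thus not restored with the transgene and was not seen in 786-O.

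In 95 of the 770 genes no SETD2KO list held a peak anywhere in the gene. Over all 11766 genes, a peak in both WT lists and none in the SETD2KO lists was found in 140 (1.19%), and since the rule used these lists the count is a description. The 95 genes had few regions, with a median of 1. A peak was present in at least 1 SETD2KO-1R list for 68 of them (71.6%) and in both for 33 (34.7%), against 87.1% and 70.1% of all genes. Among the 48 of them with 1 region the shares were 66.7% and 27.1%, against 63.5% and 33.6% of all genes with 1 region. The share with a peak in both lists was 40% against 57.6% with 2 regions and 33.3% against 76.4% with 3 to 4. For the 4 genes with 5 to 9 regions it was 100% against 91.8%. All genes include those with peaks in SETD2KO-1R alone. At least 1 786-O list held a peak for 73 (76.8%) and all 8 did for 8 (8.42%), against 92% and 52.3% of all genes. With 1 region these shares were 79.2% and 6.25%, against 81.6% and 20.4% of all genes with 1 region. All 8 held a peak for 4% against 36.9% with 2 regions, and for 16.7% against 55.0% with 3 to 4. The 8 with the strongest WT peaks were RPL27, LAD1, FAM136A, EVPL, RTN4IP1, HSBP1L1, METTL9 and MLST8. EVPL, which encodes envoplakin of the desmosome, held the longest lost region (chr17:76007833-76010749, 2917 bp), at 95.1 and 85.6 in WT and in no SETD2KO-1R list, and it was called in all 8 lists of 786-O. The next longest lay outside any gene on chromosome 3 (2608 bp), and the third was in CDH5 (chr16:66402553-66404462, 1910 bp), at 57.2 and 69.9 in WT and 94.3 and 90.0 in SETD2KO-1R. CDH5, VE-cadherin, was the sole gene with a lost region in a list of markers of other cell types, in which 6 of 21 genes had an RPTEC region.

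Lists of genes give the lost regions by function, beside 6.54% of genes and 1.47% of regions overall. No test was made on the lists. Genes of epithelial junctions and polarity had 13 lost regions of 341 (3.81%) in 11 of 42 genes (26.2%), with a median of 4.5 regions a gene. They include NECTIN3, an adhesion molecule, MARVELD2, which encodes tricellulin of the tight junction, PRKCI, the atypical protein kinase C of the apical polarity complex, and ESRP2, an epithelial splicing regulator. Their WT percentiles were 89.3 and 28.4 for NECTIN3, 46.9 and 68.7 for MARVELD2, 25.8 and 65.3 for PRKCI, and 35.9 and 51.7 for ESRP2. MARVELD2 and ESRP2 were called in both SETD2KO-1R lists and the other regions named in neither. Over the 13, 2 were called in both SETD2KO-1R lists and 9 in none. The shares in both and in none were 14.8% and 50.4% over all lost regions and 25.2% and 40.9% over all regions.

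Genes of integrins, laminins and the basement membrane had 9 lost regions of 411 (2.19%) in 5 of 34 genes. Of these 9, 4 in HSPG2 alone, 5 were called in both SETD2KO-1R lists and 7 in at least 1. The shares were 14.8% and 49.6% over all lost regions. Over all regions, which include those called in SETD2KO-1R lists alone, they were 25.2% and 59.1%. LAMC1, ITGA6, HSPG2 and COL4A1 are among the 5 genes. HSPG2, the basement membrane proteoglycan perlecan, held 17 and 11 peaks in WT, 3 and 11 in SETD2KO-1, 5 and 2 in SETD2KO-2 and 9 and 12 in SETD2KO-1R.

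**Figure D5:**
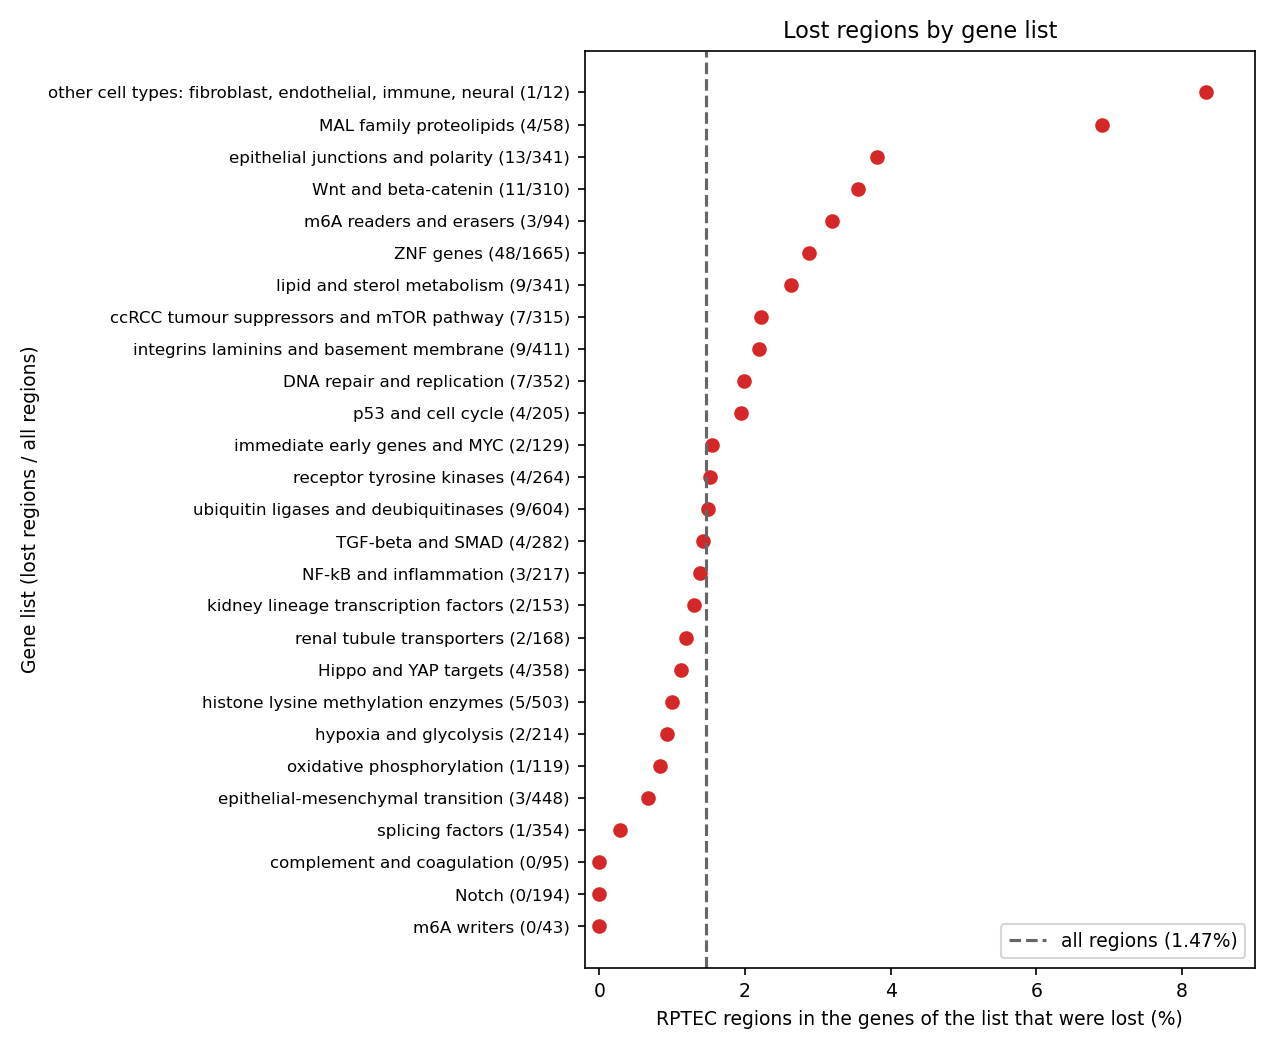
Share of the RPTEC regions in the genes of a list that were lost (x axis, %), for 27 lists (y axis, with lost and all regions in brackets). The dashed line is the share over all regions, 1.47%. Junction and polarity genes lie at 3.81%, and the writer, Notch and complement lists at 0.

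Wnt and beta-catenin genes had 11 lost regions of 310 (3.55%), 5 of them in WNT7A and 2 in ZNRF3, a ligase that removes Wnt receptors. Lipid and sterol genes had 9 of 341 (2.64%) in 9 of 55 genes, among them ECI1 of fatty acid oxidation, NPC1, the lysosomal cholesterol transporter, and INSIG1, which holds back sterol synthesis. Their WT percentiles were 77.7 and 78.4, 59.8 and 89.0, and 64.0 and 52.1. Both SETD2KO-1R lists called 1 of the 9, which is none of these 3, beside 14.8% of all lost regions and 25.2% of all regions. The ccRCC tumour suppressors and the mTOR pathway had 7 of 315 (2.22%) in 7 of 44 genes. MLST8, a subunit of mTOR complexes, had 90.2 and 80.2 in WT, PIK3R2, a PI3K subunit, 81.7 and 82.8, SMARCA4, a chromatin remodeler, 62.4 and 80.2, and PBRM1, a tumour suppressor of ccRCC, 60.8 and 75.9. Each of these 4 was called in 1 SETD2KO-1R list, and none of the 7 in both, beside the same 14.8% and 25.2%.

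None of the 43 regions in 9 writer genes was lost, which allows a share of up to 6.98%. Reader and eraser genes had 3 lost regions of 94 (3.19%) in 3 of 13 genes (23.1%). ELAVL1, FTO, the demethylase, and YTHDF2, a reader that promotes decay, each held 1 lost region, at 74.9 and 83.9, 35.3 and 53.8, and 20.0 and 22.01. ELAVL1 and YTHDF2 were called in SETD2KO-1R replicate 2 and FTO in neither. The 194 regions of Notch genes and the 95 of complement and coagulation genes held none, which allows up to 1.55% and 3.16%. Splicing factors had 1 of 354, in TRA2B, and genes of epithelial-mesenchymal transition 3 of 448, in INHBA and TPM1.

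Genes whose symbol starts with ZNF had 48 lost regions of 1665 (2.88%) in 42 of 454 genes (9.25%). On chromosome 19, 9.57% of ZNF genes had one, against 8.93% of ZNF genes elsewhere and 7.63% of the other genes on that chromosome. Both SETD2KO-1R lists called 7 of the 48 and neither called 27. Over all lost regions these shares were 14.8% and 50.4%, and over all regions 25.2% and 40.9%. The highest was in ZNF600, at 78.9 and 92.8 in WT and 92.7 in SETD2KO-1R replicate 2.

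In the remaining lists, with at least 100 regions each, the lost share was between 0.840% and 1.99%. Ubiquitin ligases and deubiquitinases had 9 of 604, DNA repair and replication 7 of 352, histone lysine methylation enzymes 5 of 503, TGF-beta 4 of 282, Hippo 4 of 358, receptor tyrosine kinases 4 of 264, p53 and the cell cycle 4 of 205, and inflammation 3 of 217. Kidney lineage factors had 2 of 153. The one in PAX2 was called in both SETD2KO-1R lists, with 51.9 and 35.3 in WT and 74.7 and 53.9 in SETD2KO-1R. Renal tubule transporters, hypoxia and immediate early genes had 2 each and oxidative phosphorylation 1. Nuclear long noncoding RNAs could hardly be read from a table of protein-coding genes, with 1 gene and 6 regions, none lost.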

How the data were processed

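MeRIP-seq peak lists of 16 IP libraries were analysed, 2 per line in RPTEC and 786-O. The 16 Input samples were not analysed here. Per the study's methods and the submitters' processing notes, the authors used STAR, HTSeq and MACS2 on hg38, normalized with added E. coli RNA, and made 1 peak list per IP library against its Input. Total RNA was fragmented before the IP, so a peak is wider than a site. In each deposited list a peak carries a score, whose scale is unstated and which was used only for ranks, and a summit. The study's methods state a minimum number of reads per sample, but without read counts in the files the depth of a library or a peak is unknown.

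Peaks of the RPTEC lists were merged on chromosomes 1 to 22. A region took the highest percentile of its peaks. Genes are RefSeq gene bodies of GRCh38.p14, 19126 of them protein-coding on the autosomes, 15101 with a strand. Sequences are RefSeq's. Groups follow the sample titles. Shares have Wilson 95% intervals, which cover counting error only, and a share of 0 the limit that 3 counts allow. The 786-O libraries were compared by exact permutation of the library labels with Benjamini-Hochberg adjustment.

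The members, gene lists and tests were chosen with earlier results of these data known. Named were the 12 strongest lost regions in protein-coding genes, the 10 called in both SETD2KO-1R lists with the highest mean percentile over those and the WT lists, up to 8 with the 786-O pattern, genes with 3 or more lost regions, up to 8 genes without SETD2KO peaks, examples from 29 gene lists, MAL and SETD2, and the 3 longest. Other genes named as examples are members chosen after their values were seen. On simulated calls, 200 of 200 planted lost regions were recovered. Alternatives were other merging, overlap, summit, length and score limits, equal list sizes, a looser rule, single clones, chromosome X, other scalings, leaving out each library, and a replicate block. Calculations used pandas 2.3.3 and SciPy 1.17.1 with NumPy 2.4.6, and plots Matplotlib 3.10.9, under Python 3.11.15. The results for some genes and 1 gene list are not reported here.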

Additional observations from a re-analysis of the deposited data

How the results depend on the processing

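The 4 comparisons in 786-O were tried under up to 29 alternatives each. The relative call rate of the lost regions kept its sign in all 29, at 0.01 to 0.25 without 1 library, and its exact permutation p stayed between 0.2 and 0.971. Without 1 library the WT comparison ranged from -0.0749 to 0.27, and it reversed without 786-O WT replicate 1. The gene comparison ranged from -0.0028 to 0.041 without 1 library and reversed without 786-O SETD2KO-1R replicate 2. Lost minus gained passed unadjusted in 4 alternatives, each with an exact permutation p of 0.0286, the smallest it allows: 0.50 with the upper 50% of each list, 0.44 for SETD2KO-2 alone, a difference of 13.97 percentage points on plain percents, and 0.61 without 786-O SETD2KO-1R replicate 1. Its range without 1 library was 0.23 to 0.61. The replicate numbers were not taken as pairs, since the correlation between 786-O lines of replicate 1 minus replicate 2 calls over the regions was -0.06 to 0.17 and only 1 of 6 pairs of lines was over 0.1. With them as a replicate block no test changed its call: the difference for the lost regions stayed at 0.13 (exact permutation p = 0.556) and lost minus gained at 0.47 (exact permutation p = 0.111). The number of lost regions was 505 with the upper 50% of each list, 1883 and 2073 for SETD2KO-1 and SETD2KO-2 alone, 11206 when 1 of the 6 lists may deviate, and 979 to 5606 without 1 RPTEC library, with 5606 and 5238 without WT replicate 1 or 2. The share called in both SETD2KO-1R lists was 12.2% with overlap of 50% of the region, 11.8% with peaks of at least 300 bp, 8.33% with 1 deviating list, 19.9% and 30.2% for the single clones, and 4.57% to 37.6% without 1 library, where the highest values have 1 SETD2KO-1R list left. The share called in at least 1 was 44.2% and 42.0% in the first 2 of these, 42.9% with equal list sizes, 32.8% with 1 deviating list, 60.8% and 63.7% for the single clones and 25.3% to 57.0% without 1 library. The share called in 786-O was 56.5% with 1 deviating list, 77.2% and 81.0% for the single clones and 46.7% to 76.2% without 1 library. The causes were not tested. A score of weak rank in a list without counts limits how firmly any single absent call can be read.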
